A study of Mus musculus with 6 samples.

Results

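Cholesterol and fatty acid synthesis genes were followed in splenic B cells that lack the histone acetyltransferase Crebbp. The members were 29 genes named by symbol for their place in these pathways, with earlier results of these data known: 15 of sterol synthesis, 5 that control it, 6 of fatty acid synthesis and 3 of sterol transport. Of these 28 were read on the array, each through its probe set of highest mean level, among 18193 genes read in all. Acat2 was not analysed here.

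The series holds 6 Affymetrix arrays of mouse splenic B cells, 1 mouse each. In the floxed group (CBPF/F x EµBcl2, n = 3) Crebbp was flanked by recombination sites, and in the deleted group (CBPΔ/Δ x EµBcl2, n = 3) it had been deleted. All 6 mice carried the EµBcl2 transgene, which drives the survival protein Bcl2 in B cells, so no mouse here had normal Bcl2. Cells of the spleen had been stored frozen, and after thawing the B cells were enriched with beads that take away cells carrying CD43. The Cre that deleted Crebbp, and the age of the mice, are not given in the sources used here. Levels below are log2 intensities, and differences are deleted minus floxed, so that 1 unit is a doubling.

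Cells build cholesterol from acetyl-CoA through mevalonate, isoprenoids and squalene, and the enzymes of this chain are switched together. The transcription factor SREBP2 (gene Srebf2) is held in the endoplasmic reticulum by Scap and the Insig proteins while sterols are plentiful, and travels to the Golgi to be cut free when they fall. SREBP1 (Srebf1) serves mainly the fatty acid enzymes, while surplus sterols activate the nuclear receptors LXR, which raise the exporters Abca1 and Abcg1 and the desaturase Scd1. B cells that divide or become secretory need membrane lipid, and Crebbp is a coactivator that was named for binding the factor CREB and that SREBPs also recruit.

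Promoters of 4 members are shown as examples: Hmgcs1, which holds the only SREBP-like match among the members, Insig1 and Srebf2, whose groups did not overlap, and the sterol enzyme Cyp51. RefSeq windows of the build GRCm38.p6 matched 22 of the 29 members, with 30 windows in all, and the 250 bases before each start were searched on both strands for 4 motifs. Hmgcs1 lies at chr13:119690101-119690350 (+ strand), Insig1 at chr5:28071162-28071411 (+ strand), Srebf2 at chr15:82147019-82147268 (+ strand) and Cyp51 at chr5:4104698-4104947 (- strand). Capitals mark the SREBP-like motif TCACNCCAC, the shorter CREB site TGACG and the NF-Y motif CCAAT, on either strand, and sequences read toward the gene.
Hmgcs1: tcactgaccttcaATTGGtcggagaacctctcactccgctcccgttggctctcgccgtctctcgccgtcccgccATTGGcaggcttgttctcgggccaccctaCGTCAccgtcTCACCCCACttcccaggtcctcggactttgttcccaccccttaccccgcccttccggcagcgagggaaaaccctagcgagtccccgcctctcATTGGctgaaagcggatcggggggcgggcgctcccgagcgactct
Insig1: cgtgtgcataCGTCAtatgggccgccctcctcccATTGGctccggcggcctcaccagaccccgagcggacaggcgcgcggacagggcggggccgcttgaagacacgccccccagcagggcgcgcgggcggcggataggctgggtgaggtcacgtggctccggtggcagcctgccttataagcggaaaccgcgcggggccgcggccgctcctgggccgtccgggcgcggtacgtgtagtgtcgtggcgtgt
Srebf2: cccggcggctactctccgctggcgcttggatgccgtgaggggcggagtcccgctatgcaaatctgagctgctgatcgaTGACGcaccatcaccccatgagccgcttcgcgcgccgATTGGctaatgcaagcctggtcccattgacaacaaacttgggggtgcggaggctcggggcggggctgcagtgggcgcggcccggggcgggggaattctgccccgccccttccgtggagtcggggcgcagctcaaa
Cyp51: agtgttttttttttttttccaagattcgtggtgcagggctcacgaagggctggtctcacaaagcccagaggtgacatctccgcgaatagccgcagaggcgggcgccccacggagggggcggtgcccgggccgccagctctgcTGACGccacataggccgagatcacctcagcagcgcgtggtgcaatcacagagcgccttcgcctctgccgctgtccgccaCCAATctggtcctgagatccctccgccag
The motif TCACNCCAC was in 1 of the 30 member windows, that of Hmgcs1, and in 1.05% of all 32851 windows. There it began 137 bases before the start, beside a TGACG match that began 147 bases before it on the opposite strand. TGACG was in 7 of the 30 windows (23.3%, against 17.8% of all windows) and CCAAT in 17 (56.7%, against 33.8%). The full CREB motif TGACGTCA, which holds TGACG, was in 0 of the 30 and in 1.55% of all windows. These are letter matches in a short window and say nothing about binding.

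All 4 Crebbp probe sets were lower in each deleted than in each floxed sample, at 51% to 70.6% of the floxed level. The one that stands for the gene did not pass the test (difference −0.50, limma adjusted p = 0.0776), and whether these probe sets lie in the deleted part is not known here. The marker lists showed mixed cells. Summed intensities of 7 B cell markers were 21625 to 26537 in the floxed and 16714 to 18129 in the deleted samples, those of 9 plasma cell markers 6039 to 6927 and 12183 to 19577, and those of 10 macrophage markers 493 to 1647 and 1533 to 3595. The B cell markers did not fall alike. Cd79a, the only 1 called (limma adjusted p = 0.00928), stood at 46.4% of the floxed mean, Fcer2a at 49% and Cr2 at 59.3%. Cd22 stood at 80.8%, Pax5 at 82.7%, Ms4a1 at 89% and Cd79b at 95.3%. No B cell or macrophage marker and 1 plasma cell marker lay below the median of all probe sets (4.29). In bulk samples, fewer cells of a type and less RNA per cell cannot be told apart. Xist and Y-linked genes read floxed 1, deleted 1 and deleted 3 as male and the other 3 as female.

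None of the lipid synthesis genes passed the test between the groups. Of the 28 members 0 were called by limma at a Benjamini-Hochberg adjusted p under 0.05 over all genes, where 0.781% of all genes (142 of 18193) were called, and the smallest adjusted p among the members was 0.21. At an unadjusted p under 0.05 there were 2 of the 28 members, against 14.8% of all genes. Both, Stard4 and Insig1, were lower in the deleted samples (6.84% of all genes), and 0 were higher (7.96%). The groups did not overlap in 5 members, against 21.2% of all genes. Of these Sc5d, Insig1, Srebf2 and Stard4 were lower in the deleted samples (10% of all genes) and Scap was higher (11.2%). Differences ran from −0.38 (Insig1) to 0.31 (Fdps), with 16 negative, 12 positive and a median of −0.041, against 0.013 over all genes. For each of the 28 members the 95% interval of the difference lay within 1 log2 unit of 0 on both sides, as for 93.6% of all genes, and for 13 (46.4%) it lay within 0.5, against 68.2% of all genes. The 28 members had 68 probe sets, of which 0 passed when all probe sets were tested with limma (0.411% of all probe sets passed) and 7 had an unadjusted p under 0.05 (13.6% of all probe sets).

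**Figure D1:**
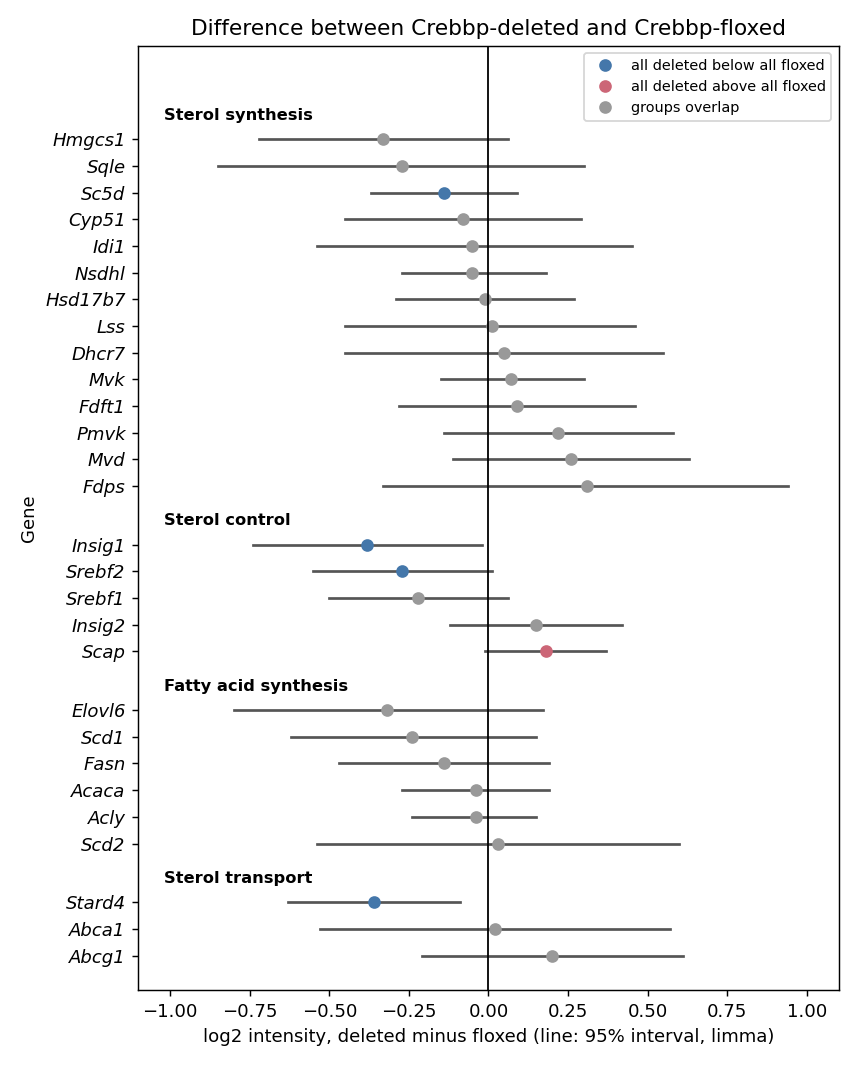
Difference in log2 intensity, deleted minus floxed (x axis), for each of the 28 genes (y axis) in 4 groups. Points are limma estimates from 3 mice a group, lines their 95% intervals, and colours say whether the groups overlap. The estimates run from −0.38 to 0.31, and only the intervals of Stard4 and Insig1 leave out 0, before any adjustment for the number of genes.

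Sterol synthesis genes had no common direction. Of the 14 measured, 7 stood higher and 7 lower in the deleted samples, 0 with an unadjusted p under 0.05 in limma, and their median difference was 8.8e-05. The first committed condensing enzyme, Hmgcs1, stood lowest among them. It read 8.81, 9.38 and 8.93 in floxed samples 1, 2 and 3 and 8.74, 8.54 and 8.87 in the deleted ones. Floxed 2 was high and the groups overlapped through floxed 1 and deleted 3, giving a difference of −0.33 ± 0.17 (SE, limma adjusted p = 0.414). Without floxed 2 it was −0.16. Its 4 other probe sets had differences from −0.34 to −0.10. On those with differences of −0.29 and −0.31 all deleted mice lay below the floxed ones (limma adjusted p = 0.49 and 0.322 over all probe sets), and on the others the groups overlapped. In the next steps the kinases Mvk and Pmvk and the decarboxylase Mvd, which turn mevalonate into isopentenyl diphosphate, had differences of 0.07, 0.22 and 0.26. The isomerase Idi1 had one of −0.05.

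Fdps, which makes farnesyl diphosphate, had the highest estimate and the widest spread. It read 6.21, 7.33 and 6.86 in the floxed and 6.95, 6.98 and 7.40 in the deleted samples. The floxed mice alone covered 1.12 log2 units, with floxed 1 lowest of all 6 and floxed 2 near the top, so that the difference of 0.31 ± 0.27 (SE, limma adjusted p = 0.661) was well inside that spread. Without floxed 1 it was 0.012. Fdft1, which joins farnesyl units to squalene, had a difference of 0.09. Sqle, the squalene epoxidase and a rate-limiting step, read 6.39, 7.28 and 6.82 in the floxed and 6.48, 6.28 and 6.91 in the deleted samples. Its groups overlapped, with a difference of −0.27 ± 0.25 (SE, limma adjusted p = 0.664). It was −0.049 without floxed 2, −0.49 without floxed 1, −0.14 without deleted 2 and −0.45 without deleted 3.

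Of the enzymes that close and trim the sterol rings, Lss, which folds squalene epoxide into lanosterol, read 5.93, 6.75 and 6.40 in the floxed and 6.34, 6.31 and 6.44 in the deleted samples. The deleted mice lay close together, inside the range of the floxed ones, and the difference was 0.01 ± 0.19 (SE, limma adjusted p = 0.992). Another, dimmer Lss probe set did not overlap between the groups and was lower, with a difference of −0.46 (limma adjusted p = 0.17 over all probe sets). The demethylase Cyp51 had a difference of −0.08, Nsdhl −0.05, Hsd17b7 −0.01 and Dhcr7, the last reductase, 0.05. Sc5d, the desaturase before it, was the only member of this group whose samples separated. It read 7.31, 7.22 and 7.27 in the floxed and 7.21, 7.20 and 6.98 in the deleted samples, and the difference of −0.14 ± 0.10 (SE, limma adjusted p = 0.571) came mostly from deleted 3. Its probe set of highest variance had a difference of 0.15, the other way.

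What sterol synthesis genes shared was their variation among mice of the same genotype, a pattern chosen after the values were seen. Over 10 of the 14 genes the floxed mice ran in 1 order, floxed 1 lowest and floxed 2 highest, an order that 17.6% of all genes had. The mean deviation of the 14 genes from their own means was −0.27 in floxed 1, 0.25 in floxed 2 and 0.01 in floxed 3. It was 0.01, −0.10 and 0.11 in deleted 1, 2 and 3, so that the floxed mice enclosed all of the deleted ones. Idi1 read 7.19, 8.05 and 7.57 in the floxed and 7.52, 7.42 and 7.73 in the deleted samples, and Dhcr7 6.76, 7.47 and 6.70 against 7.13, 6.82 and 7.13. In both the deleted mice lay within the floxed range. Mvd read 5.02, 5.61 and 5.46 in the floxed and 5.65, 5.53 and 5.71 in the deleted samples, with floxed 1 alone low. Nsdhl, Sc5d, Mvk and Hsd17b7 varied less than the other sterol synthesis genes, with floxed ranges of 0.21, 0.09, 0.19 and 0.33. Mvk and Hsd17b7 still had floxed 1 lowest and floxed 2 highest. The median range within the floxed group was 0.59 log2 units, against 0.26 within the deleted group, while over all genes these were 0.25 and 0.24. In 13 of the 14 genes the floxed range was wider than the deleted range (53.1% of all genes), and in 13 it exceeded the difference between the groups (75.8% of all genes). The deleted mice also had an order, deleted 2 lowest and deleted 3 highest in 10 of the 14 genes, against 25.9% of all genes.

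**Figure D2:**
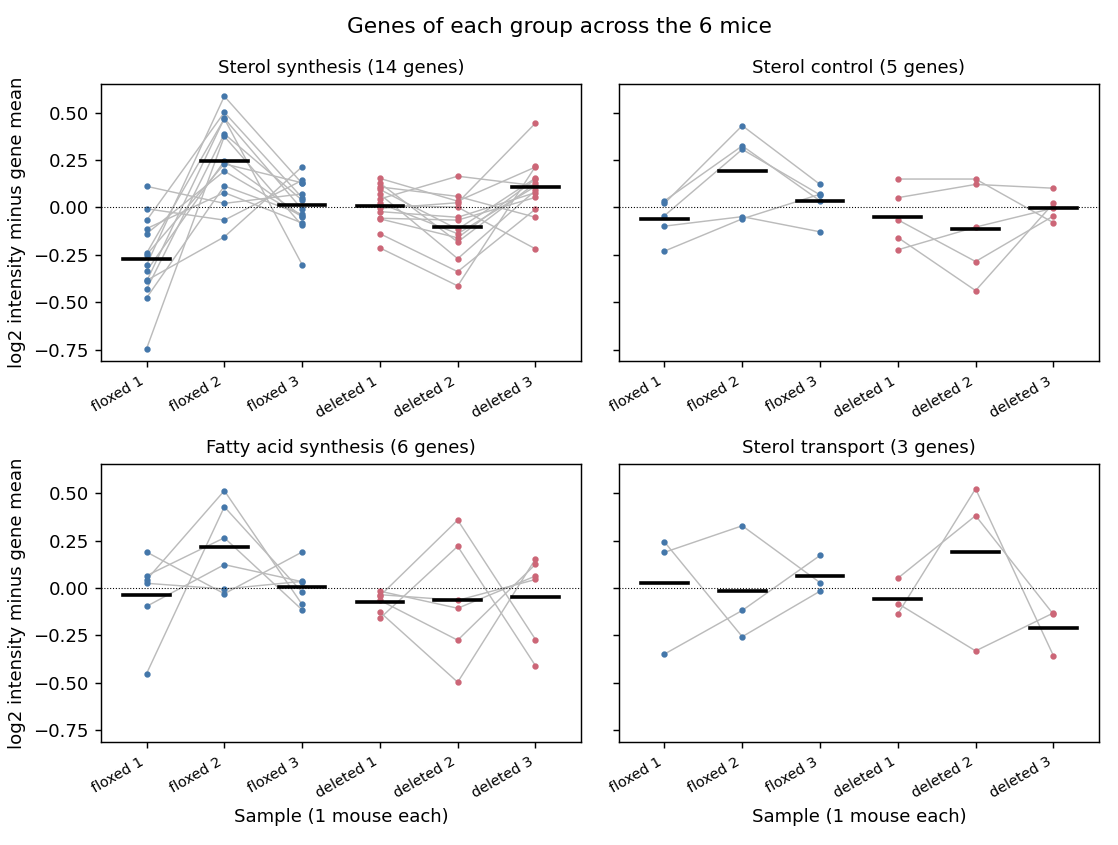
Deviation of each gene's log2 intensity from its mean over the 6 mice (y axis) by sample (x axis), in 4 panels. Dots are genes, grey lines join a gene within a group, and black bars are means over the genes. In sterol synthesis the bar climbs from −0.27 in floxed 1 to 0.25 in floxed 2, beyond the deleted samples at −0.10 to 0.11.

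The mice at both ends of that order differed in other measures too. Floxed 1, the only floxed array read as male, had a summed macrophage signal of 1647 and floxed 2 one of 493, with 908 in floxed 3, and the B cell signal was 21988, 26537 and 21625. Proliferation markers did not follow, with sums of 2184, 2320 and 3558 in floxed 1, 2 and 3. In deleted 1, 2 and 3 the macrophage sums were 3109, 1533 and 3595, lowest in deleted 2 and highest in deleted 3. The sterol genes had the same order there, the reverse of the relation among the floxed mice. B cell sums were 18129, 16714 and 17964 in deleted 1, 2 and 3. The part of these measures in the sterol pattern was not tested. Between arrays read as male the median difference of the 14 genes was 0.35 (floxed 1 against deleted 1 and 3), and between those read as female it was −0.22 (floxed 2 and 3 against deleted 2). In a limma fit with a genotype by sex term 0 of the 28 members passed (0 of 18193 genes, 0%) and 7 had an unadjusted p under 0.05, against 3.12% of all genes, 6 of the 7 being the sterol enzymes Sqle, Fdft1, Fdps, Lss, Cyp51 and Mvd and the other Abca1. With 1 floxed male and 1 deleted female, that term cannot be told apart from these single mice.

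Of the genes that control the pathway, none was called and the differences went both ways. Their 5 differences had a median of −0.22 (−0.12 without floxed 2), 2 positive and 3 negative. Insig1, which retains Scap in the endoplasmic reticulum and is itself an SREBP target, read 7.35, 7.76 and 7.45 in the floxed samples. In the deleted samples it read 7.17, 6.89 and 7.35. The deleted mice lay below the floxed ones, but floxed 1 and deleted 3 were equal to 2 decimals, and the mean was 76.6% of the floxed mean with a 95% interval from 59.7% to 98.3% (difference −0.38 ± 0.15, SE, limma adjusted p = 0.304). Insig2, its less sterol-responsive relative, had a difference of 0.15, with the groups overlapping.

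Srebf2 read 8.81, 9.10 and 8.81 in the floxed and 8.71, 8.49 and 8.73 in the deleted samples. All 3 deleted mice lay below the floxed ones, by 0.27 ± 0.12 on average (SE, limma adjusted p = 0.356), while its second probe set overlapped. Srebf1 had a difference of −0.22 (limma adjusted p = 0.437), with the groups overlapping. Scap, the escort that carries SREBP to the Golgi, read 8.10, 8.15 and 8.07 in the floxed and 8.25, 8.32 and 8.30 in the deleted samples. The deleted mice were all higher, by 0.18 ± 0.08 (SE, limma adjusted p = 0.364), yet its dimmer second probe set had a difference of −0.35, so that the direction for Scap depends on the probe set.

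**Figure D3:**
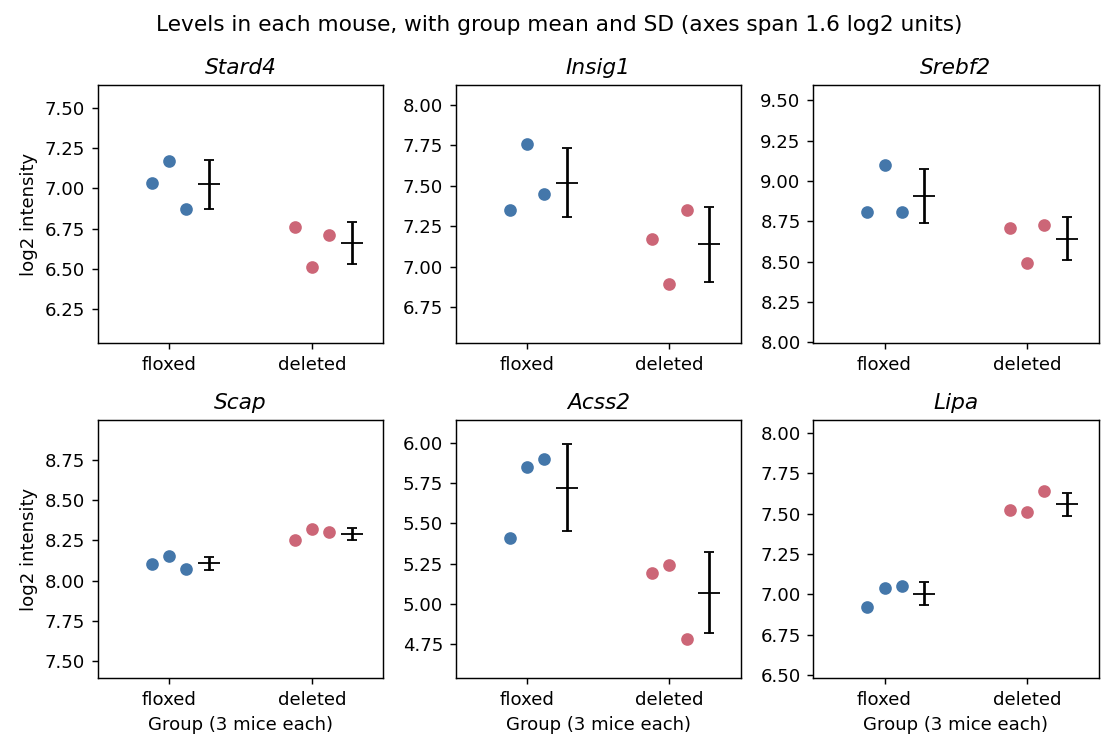
log2 intensity (y axis) of 6 genes in the 3 floxed and 3 deleted mice (x axis); dots are mice, and bars the mean ± SD. Stard4, Insig1, Srebf2 and Acss2 sit lower and Scap and Lipa higher in the deleted mice, and of these Lipa alone had an adjusted p under 0.05 in limma (0.0484).

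Of the fatty acid synthesis genes 0 were called, and for 3 of the 6 (50%) the 95% interval lay within 0.5 log2 units of 0, against 68.2% of all genes. Of 6 members 5 stood lower, 0 had an unadjusted p under 0.05 in limma, 0 were without overlap, and the median difference was −0.092 (−0.17 without floxed 1 and −0.050 without floxed 2). Acly, which makes cytosolic acetyl-CoA from citrate, read 9.80, 9.77 and 9.81 in the floxed and 9.74, 9.71 and 9.82 in the deleted samples. That was the tightest of the 28 genes among floxed mice (SD 0.02), and its 95% interval ran from −0.24 to 0.15. The carboxylase Acaca had a difference of −0.04 and the synthase Fasn one of −0.14 (95% interval −0.47 to 0.19). Elovl6, which lengthens palmitate, had one of −0.32, but its level of 3.63 in the floxed group lay below the median of all probe sets, where a fold is uncertain.

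The desaturases Scd1 and Scd2, which put the double bond into stearate and palmitate, differed more between mice than between groups. Scd1 read 12.46, 12.24 and 12.46 in the floxed and 12.11, 12.49 and 11.86 in the deleted samples. Deleted 2 was the highest of all 6 and deleted 3 the lowest, and the difference was −0.24 ± 0.17 (SE, limma adjusted p = 0.566). Scd2 read 8.44, 9.32 and 8.87 in the floxed and 8.85, 9.25 and 8.62 in the deleted samples. Deleted 2 was again the highest of its group and deleted 3 the lowest, and the difference was 0.03 ± 0.24 (SE). These genes are close relatives, and probes of one may also read the other.

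Among the transport genes Stard4 had the smallest p of all members, and the exporters overlapped between the groups. Stard4, a carrier that moves cholesterol between membranes inside the cell and an SREBP2 target, read 7.03, 7.17 and 6.87 in the floxed and 6.76, 6.51 and 6.71 in the deleted samples. All 3 deleted mice lay below the floxed ones, at 77.8% of the floxed mean (95% interval 64.5% to 93.8%; difference −0.36 ± 0.12, SE, limma adjusted p = 0.21). Its other probe sets had differences of −0.92 and −0.61. On the first of these floxed 3, at 6.18, lay below deleted 1, at 6.48. On the other floxed 3, at 5.47, lay below deleted 1, at 5.89, so the groups overlapped on both.

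Abca1, which loads cholesterol onto apolipoprotein A-I, read 10.62, 10.12 and 10.36 in the floxed and 10.24, 10.90 and 10.02 in the deleted samples. Deleted 2 was the highest and deleted 3 the lowest of all 6, and the difference was 0.02 ± 0.24 (SE, limma adjusted p = 0.978). Abcg1, which exports cholesterol to HDL, read 8.73, 8.96 and 9.25 in the floxed and 9.13, 9.46 and 8.94 in the deleted samples, with a difference of 0.20 ± 0.18 (SE, limma adjusted p = 0.661). The order deleted 3 lowest, deleted 2 highest, picked out after the values were seen, was that of Abca1, Abcg1, Scd1, Scd2 and Insig2. These 5 of the 28 members (17.9%) are near the share of all genes with that order (14.9%). The order was the reverse of that in most sterol synthesis genes. Without deleted 2 the median difference of the 3 transport genes moved from 0.021 to −0.24.

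**Figure D4:**
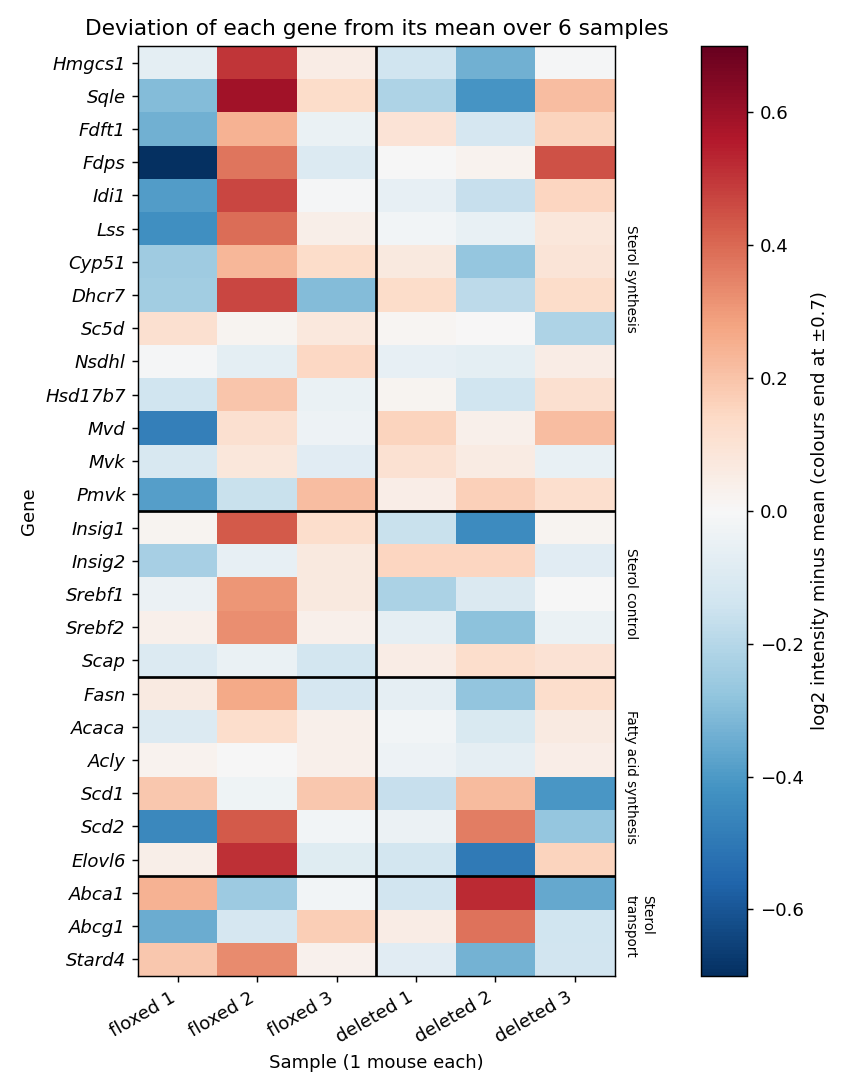
Deviation of log2 intensity from each gene's mean over the 6 mice (colour, ending at ±0.7) for 28 genes (rows) in 6 samples (columns), with the genotypes parted by the vertical line. Floxed 1 is low and floxed 2 high over most sterol synthesis rows, and deleted 2 is high for Abca1, Abcg1, Scd1 and Scd2.

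Other genes of the same pathways gave 1 call. Over all genes limma called 0.781%, and 14.8% had an unadjusted p under 0.05. Of 5 further sterol synthesis genes 0 were called by limma and 0 had an unadjusted p under 0.05; Ebp, the sterol isomerase, had a difference of 0.18, Ggps1, which makes geranylgeranyl diphosphate, −0.14 and the sterol reductase Lbr −0.05. Of 4 genes of SREBP cleavage and Insig turnover 0 were called and 1 had an unadjusted p under 0.05, the ubiquitin ligase Rnf145, at −0.24 (limma adjusted p = 0.253) with the groups apart. The proteases Mbtps1 and Mbtps2, which cut SREBP in the Golgi, had differences of −0.03 and 0.16. Of 16 further fatty acid genes 0 were called and 2 had an unadjusted p under 0.05, in both of which the deleted mice lay below the floxed ones. Acss2, which makes acetyl-CoA from acetate and is an SREBP target, read 5.41, 5.85 and 5.90 in the floxed and 5.19, 5.24 and 4.78 in the deleted samples. That is 63.7% of the floxed mean (difference −0.65 ± 0.17, SE, limma adjusted p = 0.155). The acyl-CoA synthetase Acsl3 stood at 73.1% (limma adjusted p = 0.176). The desaturase Fads2 had a difference of 0.36 from a level below the median of probe sets (limma adjusted p = 0.338).

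The call was Lipa, the lysosomal acid lipase that frees cholesterol from its esters. Lipa read 6.92, 7.04 and 7.05 in the floxed and 7.52, 7.51 and 7.64 in the deleted samples. It rose to 147% of the floxed level, all 3 deleted mice above the floxed ones (difference 0.55 ± 0.09, SE, limma adjusted p = 0.0484). It was the 1 called of 9 genes of LXR and sterol handling (0.781% of all genes were called), and the call was fragile. Leaving out any 1 mouse ended it (difference 0.51 to 0.58, limma adjusted p = 0.0691 to 0.175), as did sex as a term (0.56, adjusted p = 0.105) and the replicate number as a block (0.55, adjusted p = 0.0881). So did the mean of all its probe sets (0.41, limma adjusted p = 0.112). Taking the probe set of highest variance for every gene kept the same Lipa probe set and difference (0.55). The limma adjusted p was then 0.0642, in a fit where the probe sets of other genes had changed. Of the same 9 genes 4 stood higher (7.96% of all genes) and 2 lower (6.84% of all genes) at an unadjusted p under 0.05. The higher ones were Lipa, the LXR gene Nr1h3 at 0.39 (limma adjusted p = 0.273), the HDL receptor Scarb1 at 0.39 and the lysosomal carrier Npc2 at 0.32, the last 2 named after their values were seen. A second bright Npc2 probe set had a difference of 0.33. The dimmer Npc2 probe set of highest variance went the other way, at −0.22, and the dimmest had a difference of −0.05. The lower ones were the lysophospholipid acyltransferase Lpcat3 at −0.25 and, also named after its value was seen, the sterol hydroxylase Cyp27a1 at −0.43. All 10 macrophage markers were higher in the deleted samples, 0 of them called and 8 with an unadjusted p under 0.05 (7.96% of all genes). Their summed intensities were 493 to 1647 in the floxed and 1533 to 3595 in the deleted samples. The sum was 1647 in floxed 1 and 1533 in deleted 2. In these 2 mice Lipa read 6.92 and 7.51, Nr1h3 4.94 and 4.87, Scarb1 5.03 and 5.09 and Npc2 9.85 and 10.01. The part of macrophage RNA in the differences of the 9 genes was not tested.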

How the data were processed

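Gene expression was measured on 6 Affymetrix arrays, 3 floxed and 3 deleted samples, grouped by their titles; per the series' design text each sample is 1 mouse. The authors deposited an intensity for every probe set on every array. RMA, named in the submitters' processing notes with no version, corrects background, equalises quantiles and summarises probes. The deposited intensities run from 2.96 to 17022, so they were taken as linear, transformed to log2 and not normalized further; array medians were 4.27 to 4.30. Arrays have no read depth, and their number limits the precision.

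Of 45101 probe sets 34945 had 1 gene symbol in the platform annotation and 932 had several, and the latter were not named. The 64 control probe sets were not tested. Each of 18193 genes was represented by its probe set with the highest mean, with no filter on dim genes. The deleted and floxed groups were set against each other in limma 3.58.1 (R 4.3.3; two-sided moderated test from lmFit and eBayes), with Benjamini-Hochberg adjustment over all genes and a threshold of 0.05. A permutation of 3 against 3 cannot give a p under 0.1, so none was run. The procedure was tested on simulated data, with changes larger than the difference of any member here. Its recovery of differences as small as those of the members was not tested. Promoter windows came from RefSeq (GRCm38.p6), and plots were made in Python 3.11.15 (matplotlib 3.10.9).

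The members and gene lists were chosen with earlier results of these data known. All 28 measured members are named, with up to 3 genes of smallest p from each list of other pathway genes; exceptions are stated. Markers of B, plasma, T, NK and dendritic cells, macrophages, neutrophils, red cells and proliferation were summed per sample. Alternatives covered normalization, a filter on dim genes, the choice of probe set, limma's variance model, sex, the replicate number as a block and leaving out each sample; the fits within each sex were added after seeing the data. Replicate numbers were not taken to pair the mice. Deviations from the group means correlated at 0.03, 0.10 and 0.01 between samples of the same number, and at −0.12 to 0.08 between samples of different number. With 3 mice a group, these values cannot show whether the numbers mark a shared preparation.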

Additional observations from a re-analysis of the deposited data

How the results depend on the processing

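Under all 14 other settings listed under the processing, and within the arrays of each sex, limma called 0 of the measured members. Of the 28 members, 1 of them left out by the filter on dim genes, 15 kept the sign of their difference under all 14, and 13 changed it at least once. The count of genes called (142 over all genes) was 222 with an intensity trend and robust variances, 37 with sex as a term, 4 within arrays read as male and 0 within those read as female (992 at an unadjusted p under 0.05), and it was 0 without floxed 1 (1990 at an unadjusted p under 0.05), 140 without floxed 2, 226 without floxed 3 and 16, 45 and 62 without deleted 1, 2 and 3. Members with an unadjusted p under 0.05 numbered 2, and 4 with the probe set of highest variance, 1 with the replicate block, 6 within males, 4 within females and 1 to 3 without 1 sample. Arrays read as male included 1 floxed mouse, and those read as female 1 deleted mouse. Counts from the fits within each sex therefore rest on single mice, and no response of the members in males or females can be read from them. The replicate block changed the call of Lipa among the named genes and none of a member. Median differences moved to 0.35 in males and −0.22 in females for sterol synthesis, to −0.077 in males for sterol control, to −0.22 for fatty acid synthesis with the probe set of highest variance, and to −0.29 in males and 0.36 in females for sterol transport; leaving out samples gave −0.24 to 0.21 for transport. The cause was not tested.

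Signs turned as follows. With the mean of all probe sets Lss was −0.19, Cyp51 0.0073, Scap −0.083, Scd2 −0.10 and Abca1 −0.037. With the probe set of highest variance Lss was −0.46, Cyp51 0.091, Sc5d 0.15, Scap −0.35, Abca1 −0.11, Abcg1 −0.062 and Npc2 −0.22. Hsd17b7 was 0.042 after quantile normalization again, and Idi1 0.022 with sex as a term. Leaving out 1 sample gave ranges across 0 for Abca1 (−0.24 to 0.21), Acaca (−0.10 to 0.01), Cyp51 (−0.22 to 0.042), Dhcr7 (−0.09 to 0.30), Fdft1 (−0.052 to 0.24), Hsd17b7 (−0.078 to 0.088), Idi1 (−0.26 to 0.18), Lss (−0.21 to 0.20), Nsdhl (−0.094 to 0.013), Scd2 (−0.19 to 0.25) and Mbtps1 (−0.11 to 0.051). Elovl6 is the 1 member below the median of probe sets and drops out when dim genes are left out.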

Other observations

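Marker lists not given above moved little or with single mice. Summed intensities of 6 T cell markers were 155 to 215 in the floxed and 211 to 234 in the deleted samples, of 4 NK cell markers 65 to 170 and 76 to 117, and of 5 dendritic cell markers 157 to 389 and 231 to 338. Those of 5 neutrophil markers were 94 to 444 and 86 to 630, and those of 7 proliferation markers 2184 to 3558 and 2045 to 2623. Red cell markers (3 measured, all below the median of probe sets) summed to 21 to 27 in the floxed samples and to 22, 22 and 132 in deleted 1, 2 and 3. Deleted 3 had that red cell signal and the highest plasma cell (19577), macrophage (3595) and neutrophil (630) sums. Of the 6 mice it had the lowest Scd1, Abca1 and Sc5d levels and the highest Fdps, Mvd and Acly levels. These genes were picked after the values were seen, and a link to the marker sums was not tested.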
